A study of Mus musculus with 6 samples.

Results

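The core loop of the circadian clock was described in kidneys of 24-month-old mice through 10 genes, Arntl, Clock, Npas2, Per1, Per2, Per3, Cry1, Cry2, Nr1d1 and Nr1d2. Members were taken by gene symbol, and all 10 were listed among the 13696 protein-coding genes of the tables, with 17 of the 27486 transcripts. Total RNA from kidney had been sequenced in 6 libraries. The control group held 3 WT libraries, and the other group held 3 libraries labelled fat-1 knockin (fat-1 here), which carry a nematode desaturase gene that makes omega-3 from omega-6 fatty acids. The promoter of the inserted gene, strain, sex, feeding and hour of collection were not in the labels used here, and RNA of the inserted gene was not analysed here as a check of genotype. Whether each library stands for a different animal is not in the labels either, and p-values cover no more than the spread seen among the 6 libraries.

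The clock of mammalian cells is a transcription loop that turns over about once a day. BMAL1, encoded by Arntl, pairs with CLOCK or its paralog NPAS2 and binds E-box sequences in the Per, Cry and Nr1d genes. PER and CRY proteins then inhibit that pair, while REV-ERB proteins, encoded by Nr1d1 and Nr1d2, repress Arntl and Npas2 through ROR elements. In mouse peripheral tissues, the kidney among them, RNA of Arntl and Npas2 is known to peak near the change from night to day, RNA of Nr1d1 during the day, RNA of the Per genes and of Dbp around the change from day to night, and RNA of Cry1 later in the night.

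The elements through which the loop is wired were looked up in RefSeq promoter windows, build GRCm38.p6, which run from 250 bases before to 50 bases after a start. Windows were found for 9 of the 10 members, 13 in all; Per2 had none. The letters searched on both strands were the E-box CACGTG (in 7.15% of all 32851 windows), the E-prime box CACGTT (4.68%), the D-box TTANGTAA (2.32%), the ROR elements TAGGTCA (2.61%) and TGGGTCA (3.98%) and the cyclic AMP element TGACGTCA (1.79%). No match overlapped another, and TGGGTCA and TGACGTCA were in none of the members' windows. The windows of Clock, Npas2 and Nr1d2 held no match of any of these letters. Apart from Per3, the stretches hold letters through which members of the loop are known to act on each other. The Per3 stretch holds D-boxes, at which clock factors outside the 10 members act. All stretches with matches read as follows on the strand of the gene, with the matched letters in capitals.
Arntl, ROR element, chr7:113207530-113207559, plus strand: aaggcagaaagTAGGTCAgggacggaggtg
Per1, E-box, chr11:69098756-69098815, plus strand: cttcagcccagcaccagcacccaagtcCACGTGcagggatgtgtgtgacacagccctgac
Per3, both D-boxes, chr4:151044811-151044875, minus strand: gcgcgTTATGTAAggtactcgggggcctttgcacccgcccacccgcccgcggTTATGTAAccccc
Cry1, E-prime box then E-box, chr10:85185091-85185150, minus strand: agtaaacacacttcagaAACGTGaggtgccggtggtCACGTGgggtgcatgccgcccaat
Cry2, E-prime box, chr2:92434203-92434262, minus strand: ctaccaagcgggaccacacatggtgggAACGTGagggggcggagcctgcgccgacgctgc
Nr1d1, E-prime box, chr11:98775378-98775437, minus strand: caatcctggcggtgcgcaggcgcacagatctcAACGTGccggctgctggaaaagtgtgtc
AACGTG is the E-prime box read on the other strand. The Arntl stretch lies after both Arntl starts of the RefSeq table and inside the window of 1 of them, within an exon and untranslated region of Arntl-201 in the GENCODE M21 annotation. The Per1 and Per3 stretches lie before the printed starts but inside the longer transcripts Per1-202 and Camta1-211. A match describes these letters only and is not a measured binding site.

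Library values are given as FPKM, fragments scaled to transcript length and to the mapped fragments of the library, summed over a gene's listed transcripts. Summed FPKM per library ran from 387488 to 431081, and read depth is unknown. WT replicate 1 and fat-1 replicate 3 stood apart for the leukocyte gene Ptprc. It measured 8.27 and 8.26 FPKM there and at most 0.906 FPKM in the other 4 libraries. Over all genes, the Pearson r of log2(FPKM + 1) between WT replicate 1 and the other WT libraries was 0.946 and 0.942. Between fat-1 replicate 3 and the other fat-1 libraries it was 0.968 and 0.970. Because of Ptprc, member differences without WT replicate 1 and fat-1 replicate 3 are given beside the main ones. Cry1 is the exception, as it then fell under the minimum for testing. Kidney markers were abundant, with the thick ascending limb gene Umod at 425 FPKM or more in every library and the phosphate transporter gene Slc34a1 of the proximal tubule at 854 FPKM or more. Of 4 adrenal markers only Star was listed, at 0.507 FPKM at most.

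The activator arm was lower in fat-1 for Arntl and Npas2 and close between the groups for Clock, while Per3 and Cry2 of the inhibitor arm were higher in every fat-1 library than in any WT library. Arntl was 2.42-fold and Npas2 4.78-fold lower in fat-1 by group means, and Per3 was 2.03-fold and Cry2 1.63-fold higher. None of these passed the test across genes. In limma on log2(FPKM + 1), 0 of the 10 members had a Benjamini-Hochberg adjusted p under 0.05, against 0.18% of the 11698 tested genes. At an unadjusted p under 0.05 there were 5 members (Npas2, Arntl, Per3, Cry2 and Per1), against 9.97% of tested genes. Groups did not overlap for 4 members, 2 in each direction, against 15.2% of tested genes (8.33% with fat-1 above WT and 6.86% below). An exact permutation test of 3 against 3 libraries cannot go below p = 0.1, and these 4 genes reached that value. The 10 genes were chosen with earlier results of these data known, so their counts are a description.

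**Figure D1:**
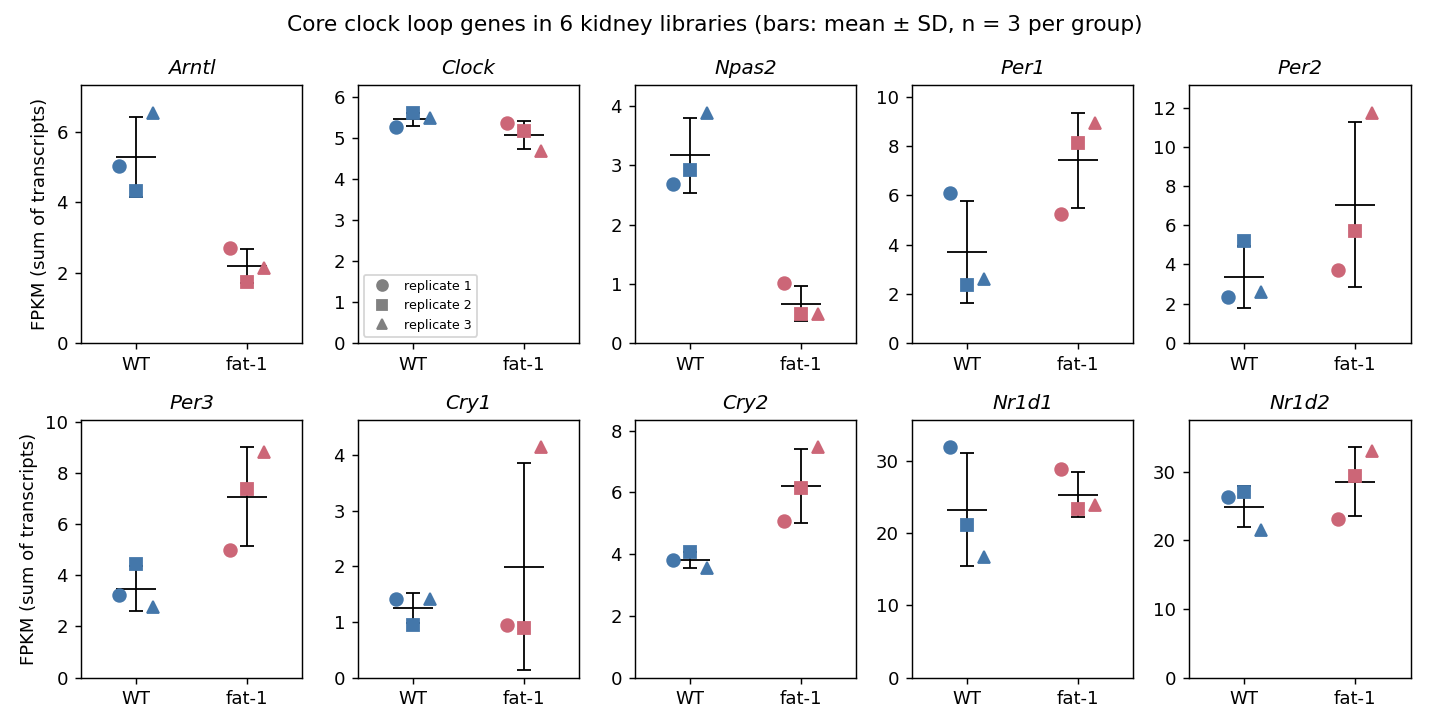
FPKM of the 10 core loop genes, one panel each, with 1 point per library (WT blue, fat-1 red, symbol by replicate) and horizontal and vertical bars for the mean ± SD of 3 libraries. Arntl and Npas2 are lower in all fat-1 libraries, Per3 and Cry2 are higher in all of them, and the other 6 genes overlap.

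Arntl encodes BMAL1, the activator without which the loop stops (chromosome 7, 113207465 to 113314126, mm10). It measured 5.03, 4.32 and 6.56 FPKM in WT replicates 1, 2 and 3 and 2.71, 1.73 and 2.14 FPKM in fat-1 replicates 1, 2 and 3. The lowest WT value lay above the highest fat-1 value. The difference, fat-1 minus WT, was -0.98 ± 0.20 (SE) on the log2(FPKM + 1) scale (adjusted p = 0.134), and -0.99 without WT replicate 1 and fat-1 replicate 3.

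Npas2 encodes a CLOCK paralog that can replace it beside BMAL1 (chromosome 1, 39193731 to 39363236). It was the member with the smallest p, at 2.69, 2.92 and 3.89 FPKM in WT and 1.00, 0.494 and 0.489 FPKM in fat-1 in replicate order. All WT libraries were above all fat-1 libraries. The log2 difference was -1.33 ± 0.21 (SE; adjusted p = 0.0766), ranking 60th by p among the tested genes, and -1.34 without the pair of libraries that stood apart. Npas2 reached 1 FPKM in 1 of 3 fat-1 libraries and in all 3 WT libraries, so it entered the test mainly through WT, where it was higher. The scale understates its difference: with a pseudocount of 0.1 the log2 difference was -2.15.

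Clock encodes the usual partner of BMAL1 (chromosome 5, 76209868 to 76304792). It varied least of the 10 genes, at 5.27, 5.59 and 5.48 FPKM in WT and 5.34, 5.17 and 4.68 FPKM in fat-1. The groups overlapped, and the 95% interval of the log2 difference ran from -0.39 to 0.21 (estimate -0.06 without the pair of libraries that stood apart). Set against Clock within each library, Arntl was at a ratio of 0.954, 0.772 and 1.20 in WT and 0.507, 0.336 and 0.457 in fat-1. For Npas2 the ratio to Clock was 0.511 to 0.710 in WT and 0.0956 to 0.188 in fat-1. These ratios do not change when all values of a library are scaled by a common factor, but they depend on the choice of transcript. With the highest transcript of each gene, Arntl to Clock was 1.07, 0.741 and 1.46 in WT and 0.716, 0.460 and 0.645 in fat-1.

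Per1 and Per2 encode inhibitors that carry CRY proteins into the nucleus, and Per3 encodes their paralog. Per3 (chromosome 4, 151003652 to 151044665) measured 3.24, 4.45 and 2.75 FPKM in WT and 5.0, 7.38 and 8.82 FPKM in fat-1. Its groups did not overlap, and the log2 difference was 0.84 ± 0.24 (SE; adjusted p = 0.264). Without the pair of libraries that stood apart it was 0.65. Per3 lies within the interval of Camta1 on the same strand, whose WT level of 1.64 ± 0.630 FPKM overlapped that of fat-1, 1.73 ± 0.118 FPKM (SD, n = 3).

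Per1, an inhibitor gene that also responds to cyclic AMP and glucocorticoids (chromosome 11, 69095217 to 69109960), measured 6.11, 2.37 and 2.62 FPKM in WT and 5.25, 8.13 and 8.93 FPKM in fat-1. WT replicate 1 lay above fat-1 replicate 1, so the groups overlapped. The log2 difference was 0.90 ± 0.33 (SE; adjusted p = 0.427), and 1.25 without WT replicate 1 (adjusted p = 0.0998). It was 1.11 when both libraries that stood apart were left out (adjusted p = 0.174). WT replicate 1 was also the highest library for the immediate early gene Fos, at 13.4 FPKM against 0.433 to 4.70 FPKM in the others, and its part in the Per1 value was not tested. Of the 9 immediate early and CREB-responsive genes tested, 0 passed in limma (0 at an unadjusted p under 0.05), and their median log2 difference was 0.33 against 0.0059 over all tested genes.

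Per2, which binds CRY and also nuclear receptors (chromosome 1, 91415982 to 91459324), measured 2.34, 5.18 and 2.61 FPKM in WT and 3.71, 5.72 and 11.7 FPKM in fat-1. Fat-1 replicate 3 was far above all others, and WT replicate 2 lay above fat-1 replicate 1. The log2 difference of 0.81 ± 0.41 (SE; adjusted p = 0.620) was 0.25 without WT replicate 1 and fat-1 replicate 3 and 0.42 without fat-1 replicate 3 alone.

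Cry2 and Cry1 encode the repressors that act directly on the BMAL1 pair. Cry2 (chromosome 2, 92403646 to 92434043) measured 3.81, 4.06 and 3.57 FPKM in WT and 5.06, 6.13 and 7.46 FPKM in fat-1. The WT libraries lay within a narrow range below all fat-1 libraries. Its log2 difference was 0.57 ± 0.17 (SE; adjusted p = 0.281), and 0.45 without the pair that stood apart. The noncoding gene D930015M05Rik overlaps 23417 bases of Cry2 on the other strand, and the use of strand in counting is not given here.

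Cry1 (chromosome 10, 85131700 to 85185064) had the lowest mean of the members in WT, at 1.42, 0.940 and 1.41 FPKM in WT and 0.949, 0.889 and 4.14 FPKM in fat-1. Fat-1 replicate 3 alone was high, and the other 2 fat-1 libraries lay close to WT replicate 2. The log2 difference was 0.25 ± 0.40 (SE), with a 95% interval from -0.71 to 1.20. Without fat-1 replicate 3 Cry1 fell under the minimum for testing.

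Nr1d1 and Nr1d2 encode REV-ERB alpha and REV-ERB beta, the repressors of Arntl and Npas2, and were the highest members. Nr1d1 (chromosome 11, 98767932 to 98775333) measured 31.9, 21.1 and 16.7 FPKM in WT and 28.8, 23.3 and 23.8 FPKM in fat-1. The WT libraries spanned the fat-1 ones, and the log2 difference was 0.16 ± 0.23 (SE). It was -0.04 without WT replicate 3, 0.41 without WT replicate 1 (adjusted p = 0.350) and, with both libraries that stood apart left out, 0.45 (adjusted p = 0.439). The end of Nr1d1 overlaps Thra, on the other strand, by 1075 bases; Thra had means of 19.6 ± 2.67 FPKM (WT) and 19.3 ± 1.54 FPKM (fat-1; SD, n = 3). Nr1d2 (chromosome 14, 18204054 to 18239127) measured 26.3, 27.0 and 21.5 FPKM in WT and 23.1, 29.4 and 33.1 FPKM in fat-1. Its groups also overlapped, and the 95% interval of its log2 difference ran from -0.21 to 0.57 (estimate 0.18, and 0.11 without the pair that stood apart).

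**Figure D2:**
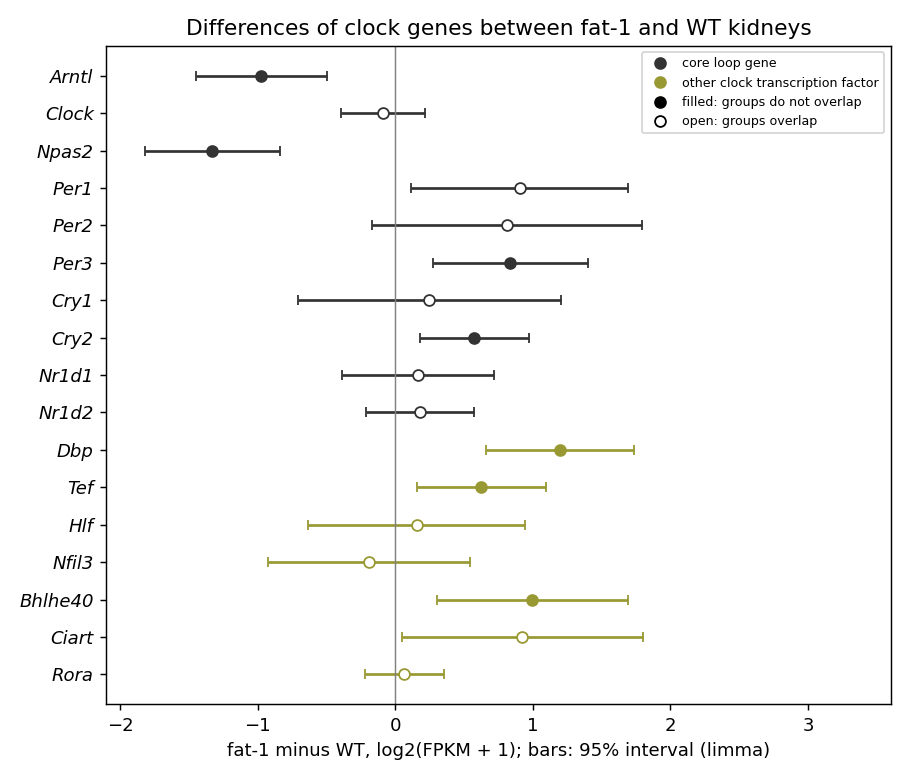
Difference between fat-1 and WT on the log2(FPKM + 1) scale with 95% intervals from limma, for the 10 core loop genes (black) and 7 other clock transcription factors (olive); filled points mark genes whose groups do not overlap. Arntl at -0.98 and Npas2 at -1.33 lie on one side of 0, and Per3, Cry2, Dbp, Tef and Bhlhe40 lie apart on the other.

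In order of mean WT level the members were Nr1d2 (24.9 ± 2.99 FPKM), Nr1d1 (23.2 ± 7.81), Clock (5.45 ± 0.163), Arntl (5.30 ± 1.15), Cry2 (3.81 ± 0.248), Per1 (3.70 ± 2.09), Per3 (3.48 ± 0.877), Per2 (3.37 ± 1.57), Npas2 (3.17 ± 0.637) and Cry1 (1.26 ± 0.275), each as mean ± SD over 3 libraries. Within that order Nr1d2 and Nr1d1, Clock and Arntl, and the 5 genes from Cry2 to Npas2 differed from their neighbours by less than the SD of at least 1 of each pair. In fat-1 the order below the Nr1d genes was Per1 (7.44 ± 1.93), Per3 (7.07 ± 1.93), Per2 (7.06 ± 4.18), Cry2 (6.22 ± 1.20), Clock (5.06 ± 0.343), Arntl (2.20 ± 0.491), Cry1 (1.99 ± 1.86) and Npas2 (0.662 ± 0.296). Arntl thus stood above the 3 Per genes by mean in WT and below them in fat-1. The WT order did not hold in every library: Per1 was above Arntl in WT replicate 1, and Per2 and Per3 were above it in WT replicate 2.

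The order of the libraries differed between members, and no order held for all 10. Among the WT libraries, replicate 3 was highest for Arntl and Npas2 and lowest of all 6 libraries for Per3, Cry2, Nr1d1 and Nr1d2, and replicate 2 was lowest of WT for Arntl and highest of WT for Per2, Per3, Cry2 and Nr1d2, but also lowest of all 6 for Per1. WT replicate 1 was lowest of WT for Npas2 and highest of all 6 for Nr1d1. Among the fat-1 libraries, replicate 3 was highest of all 6 for Per1, Per2, Per3, Cry1, Cry2 and Nr1d2, while replicate 1 was lowest of fat-1 for Per1, Per2, Per3, Cry2 and Nr1d2 and highest of fat-1 for Arntl and Npas2. Fat-1 replicate 1 was thus nearest to the WT means for Arntl, Npas2, Per1, Per2, Per3 and Cry2. The Nr1d1 to Arntl ratio was 6.34, 4.89 and 2.54 in WT and 10.6, 13.4 and 11.1 in fat-1, and the Per3 to Arntl ratio was 0.644, 1.03 and 0.419 in WT and 1.84, 4.26 and 4.12 in fat-1, in replicate order. The Per2 to Nr1d1 ratio, which sets a gene of the change from day to night against one of the day, overlapped, at 0.0734, 0.245 and 0.156 in WT and 0.128, 0.245 and 0.493 in fat-1. The hour of collection of each kidney was not in the labels used here, so its part in these differences was not tested.

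**Figure D3:**
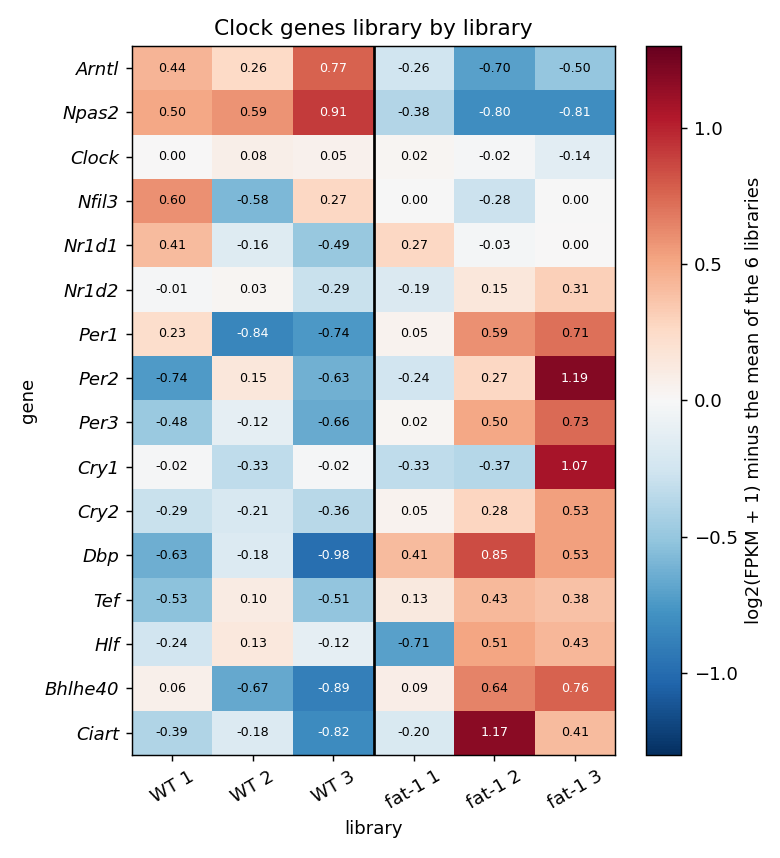
Clock genes (rows) in each library (columns), as log2(FPKM + 1) minus the gene's mean over the 6 libraries; red is above and blue below that mean, and the line parts WT from fat-1. Arntl and Npas2 are red in all WT and blue in all fat-1 libraries, Clock stays within 0.14 of its mean, and Per2 and Cry1 are reddest in fat-1 replicate 3.

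Transcript values showed which forms carried the differences. Arntl-201 measured 4.54, 2.92 and 4.77 FPKM in WT and 2.29, 1.73 and 2.14 FPKM in fat-1. The groups did not overlap for this form either. Arntl-206, which starts further along the gene, was listed at 0 in fat-1 replicates 2 and 3 and made up 15.5% of Arntl in fat-1 replicate 1 and 9.60%, 32.3% and 27.3% in WT. With the highest transcript of each gene in place of the sum, the log2 difference was -0.72 for Arntl, -1.17 for Npas2, 0.56 for Cry2 and 0.07 for Per1. The Per1 difference moved most by this choice. In fat-1 replicate 3 Per1-201 gave 5.73% of the gene and Per1-203 59.3%, at 5.29 FPKM. Per1-203 was listed at 0 in the other 5 libraries, where Per1-201 gave between 78.1% and 89.3%. The split of reads between overlapping transcripts was the authors' estimate, and an exact 0 can be a failed estimate.

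**Figure D4:**
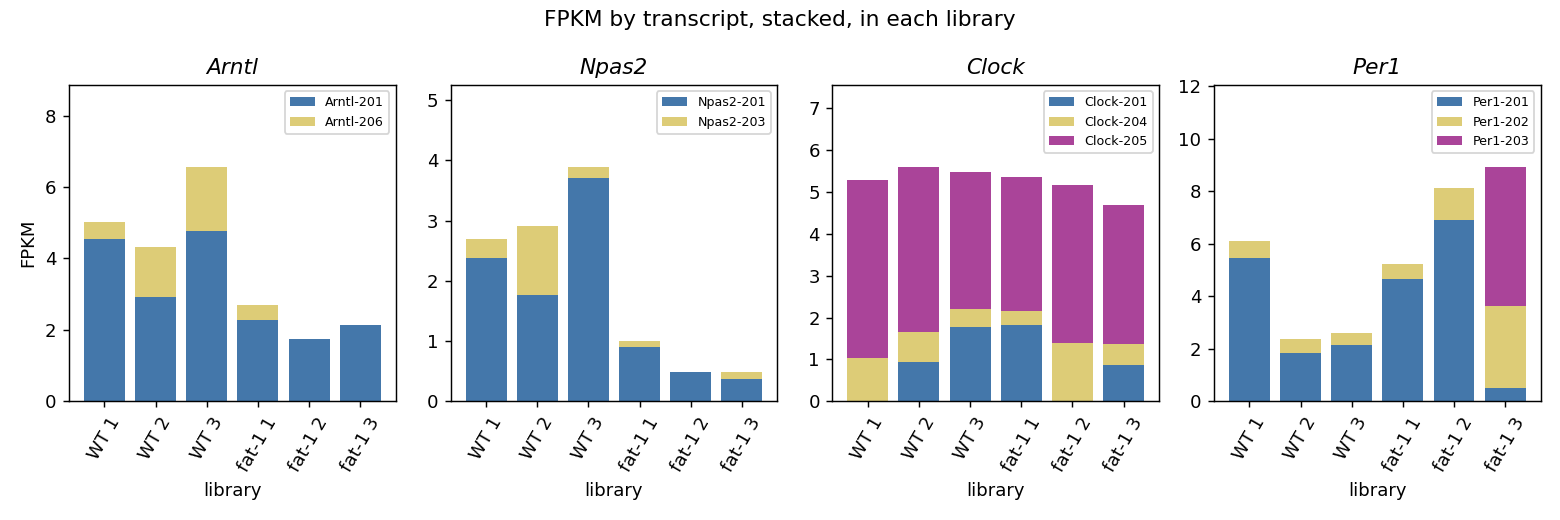
FPKM of each listed transcript of Arntl, Npas2, Clock and Per1, stacked, in the 6 libraries. The fat-1 bars are shorter for Arntl and Npas2 and alike in height for Clock, and the Per1 bar of fat-1 replicate 3 consists mostly of Per1-203.

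Genes around the loop were taken from lists by role. Of 11 other transcription factors of the clock 8 were tested, 0 passed in limma in either direction (4 at an unadjusted p under 0.05, all higher in fat-1), and their median log2 difference was 0.59 against 0.0059 over all tested genes. Dbp, an activator at D-boxes, measured 12.9, 18.1 and 9.91 FPKM in WT and 27.7, 38.0 and 30.1 FPKM in fat-1 (log2 difference 1.20 ± 0.23, SE; adjusted p = 0.117). Its relative Tef and the E-box repressor gene Bhlhe40 were also higher in every fat-1 library, with log2 differences of 0.63 and 1.00 (adjusted p = 0.325 and 0.286). Hlf, another relative of Dbp, did not share this pattern. It measured 18.7, 24.7 and 20.5 FPKM in WT and 13.3, 32.4 and 30.5 FPKM in fat-1. Its groups overlapped, with a log2 difference of 0.15 (limma adjusted p = 0.957). Ciart, an inhibitor of the BMAL1 pair, averaged 0.814 ± 0.394 FPKM (WT) and 2.65 ± 1.73 FPKM (fat-1), with overlapping groups. Nfil3, a D-box repressor, ranged from 1.86 to 5.48 FPKM over WT libraries and from 2.52 to 3.28 FPKM over fat-1 libraries. Rora, of an activator at ROR elements, was within 6.96 to 8.32 FPKM in all libraries.

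Enzymes that set the life of clock proteins formed the next list. Of 10 tested kinases, phosphatases and ubiquitin pathway genes 0 passed in limma (1 at an unadjusted p under 0.05), with a median log2 difference of 0.0053. Csnk1d, a kinase of PER proteins, had means of 23.3 (WT) and 23.6 FPKM (fat-1), and Btrc, of the ubiquitin ligase that marks PER, measured 8.64 ± 0.640 and 11.7 ± 0.745 FPKM (SD, n = 3; adjusted p = 0.292) with no overlap. Of 9 chromatin and RNA-binding partners 0 passed (0 at an unadjusted p under 0.05; median -0.0032). Among 10 clock-controlled output genes 0 passed, 3 were higher and 2 lower in fat-1 at an unadjusted p under 0.05, and the median was 0.0128. Wee1, a cell-cycle kinase gene driven by E-boxes, measured 4.18, 4.84 and 3.78 FPKM in WT and 7.30, 7.78 and 8.27 FPKM in fat-1 (adjusted p = 0.117), and Alas1 of haem synthesis measured 53.5 ± 7.27 and 36.2 ± 7.83 FPKM (adjusted p = 0.368).

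Lists of signals that can reset a peripheral clock were set beside the loop. Of 9 glucocorticoid-responsive genes 0 passed in limma (2 at an unadjusted p under 0.05), with a median log2 difference of -0.05. The 2 were Per1 itself and the kinase gene Sgk1, at 25.6 ± 5.15 (WT) and 46.1 ± 15.9 FPKM (fat-1; SD, n = 3; adjusted p = 0.335), whose groups did not overlap. Mean levels in WT and fat-1 were 13.5 and 12.8 FPKM for Tsc22d3 and 29.2 and 28.8 FPKM for Fkbp5, both named after their values were seen. Among 10 fasting and feeding genes 3 rose and 0 fell at an adjusted p under 0.05, with a median of 0.78. Among them were Pck1 of gluconeogenesis, with means of 242 ± 61.5 (WT) and 1713 ± 169 FPKM (fat-1), and the pyruvate dehydrogenase kinase gene Pdk4, at 7.29 ± 0.433 and 53.8 ± 15.7 FPKM (SD, n = 3; adjusted p = 0.0284 for both). The calls did not hold when libraries were left out: 0 of the 3 remained when replicate 3 of either group or replicate 1 of fat-1 was dropped (0 genes of any kind called, against 831 to 1059 at an unadjusted p under 0.05), 1 remained when replicate 2 of either group was dropped, and all 3 remained when replicate 1 of WT was dropped. In those 6 fits the log2 difference lay between 2.67 and 3.03 for Pck1 and between 2.5 and 2.93 for Pdk4. Of 8 temperature-responsive genes 0 passed (0 at an unadjusted p under 0.05), and the cold-induced RNA-binding protein gene Cirbp ranged from 8.75 to 27.4 FPKM in WT and from 19.2 to 28.7 FPKM in fat-1. The part of feeding in the values of the loop genes was not tested.

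Genes with the pattern most like that of Arntl were ranked by Pearson correlation of log2(FPKM + 1) over the 6 libraries, among 927 tested genes with a mean of at least 5 FPKM and an SD of at least 0.5. Dbp had the most negative value of all (r = -0.99), followed by Slc25a25, a mitochondrial carrier gene (-0.99), Enpp2 (-0.97), the dicarboxylate transporter gene Slc13a2 (-0.97) and Gpihbp1 (-0.97). The most positive were the integrin gene Itgb6 (0.97), Spink8 (0.97), Dynlt1b (0.96), Palm3 (0.95) and 2210011C24Rik (0.95). All 10 also had groups that did not overlap, and the 6 libraries share the split into 2 groups, so the values describe mainly that split. Within WT, Dbp, Per3 and Cry2 were each highest in replicate 2, next in replicate 1 and lowest in replicate 3, the reverse of Arntl. Per1 and Nr1d1 did not follow this order, since both were highest of WT in replicate 1. Within fat-1 the reverse order held for Dbp and not for Per3 and Cry2, which were highest in replicate 3. For Dbp, the order within groups is in part built into its rank by correlation over these same libraries. With 3 libraries per group few orders are possible. The share of all tested genes with the reverse order was not counted, so these orders are a description.

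**Figure D5:**
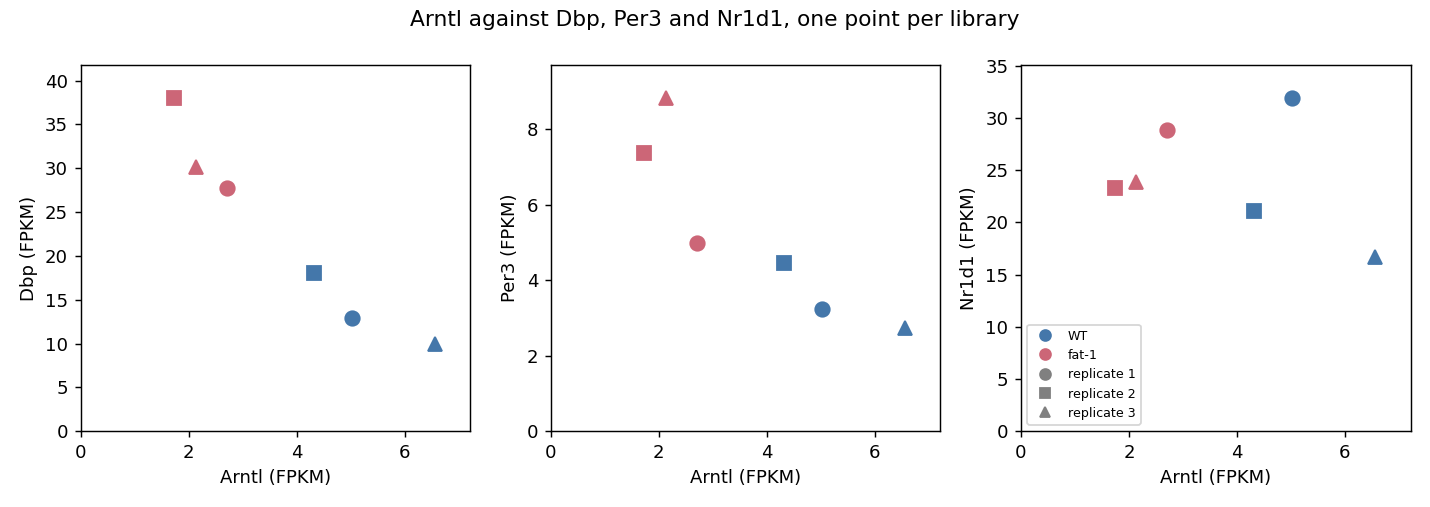
FPKM of Arntl (x axis) against Dbp, Per3 and Nr1d1 (y axes), 1 point per library, WT blue and fat-1 red. Dbp is lower where Arntl is higher across the libraries, and so is Per3 except between fat-1 replicates 2 and 3. Nr1d1 in WT runs from 16.7 to 31.9 FPKM and overlaps fat-1.

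Markers of some kidney cell types differed between the same groups. In bulk tissue, fewer cells of a type and less RNA per cell cannot be told apart. The summed level of 6 endothelial markers was 63.5 to 75.9 FPKM in WT and 138 to 191 FPKM in fat-1. All 6 had groups that did not overlap and an unadjusted p under 0.05 in limma, and 1 (Plvap) was called, a call that ended when any 1 library was left out. For 4 intercalated cell markers the sum was 87.3 to 91.6 FPKM in WT and 52.0 to 59.0 FPKM in fat-1 (0 called, 3 at an unadjusted p under 0.05 in limma). The 3 markers of the distal convoluted tubule summed to 294 to 439 FPKM in WT and 163 to 254 FPKM in fat-1 (0 called, 2 at an unadjusted p under 0.05). Of these only Calb1 had groups that did not overlap. The 4 podocyte markers summed to 57.3 to 66.6 FPKM in WT and 81.0 to 99.5 FPKM in fat-1 (0 called, 3 at an unadjusted p under 0.05). Synpo among them was lower in fat-1 by mean, at 4.80 (WT) and 3.18 FPKM (fat-1), with overlapping groups. For 5 proximal tubule markers the sums overlapped, at 1406 to 1638 FPKM in WT and 1056 to 1691 FPKM in fat-1 (0 called, 0 at an unadjusted p under 0.05). The 4 macrophage markers summed to 36.3 to 197 FPKM in WT and 39.3 to 65.3 FPKM in fat-1. All markers of these 6 lists were listed and none was at 0 in all libraries. The part of cell composition in the values of the clock genes was not tested.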

How the data were processed

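The authors deposited FPKM per transcript, 1 table per library. Only protein-coding transcripts are in the tables, and none stays below 0.5 FPKM in all 6 libraries, so sums are not full gene totals. The submitters' processing notes name HISAT2 (version 2.0.5), featureCounts (1.5.0-p3), DESeq2 (1.20.0), and mm10 as genome build, with no role; which program computed FPKM is not given in the labels. Transcripts were summed per gene identifier. A gene was tested if 3 or more libraries reached 1 FPKM (11698 genes). The test was limma 3.58.1 (R 4.3.3) on log2(FPKM + 1), with the trend and robust options of its variance step and neither covariates nor scaling; p-values were Benjamini-Hochberg adjusted over all of them. The script was tested on simulated data. Depth is unknown, so no counting intervals are given. Alternatives covered pseudocount, filter, scaling, variance estimation, transcript choice and libraries left out. Replicate numbers follow the order of deposit and only name libraries. Members and lists were chosen with earlier results of these data known. Named were all members, genes overlapping a member, and the 5 genes most like and most unlike Arntl. Of each list, up to 4 genes with the smallest p or any called were named. Further genes of the lists (Csnk1d, Rora, Nfil3, Hlf, Fkbp5, Tsc22d3, Fos, Star, Ptprc, Umod) were named after their values were seen. Promoters came from RefSeq on GRCm38.p6, overlaps from GENCODE M21. Values of some genes in the lists are not reported here.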

Additional observations from a re-analysis of the deposited data

How the results depend on the processing

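Of the 10 core loop genes 0 were called in every one of the 19 alternatives, 6 of which leave out 1 library. Directions were kept except for Nr1d1, at -0.0402 without WT replicate 3. Over the alternatives that could test it the log2 difference lay between -1.24 and -0.72 for Arntl (adjusted p from 0.122), between -2.15 and -1.17 for Npas2 (from 0.0677), between 0.65 and 1.04 for Per3 and between 0.45 and 0.69 for Cry2. The count of all called genes was 21 and was 42 with a minimum of 5 FPKM, 4 with no filter, 45 scaled to equal library sums, 32 without mitochondrial genes in that sum, 8 with median-of-ratios scaling, 11 with upper-quartile scaling, 39 with quantile normalisation, 3 with no intensity trend, 3 with the highest transcript, between 0 and 25 when 1 library was left out, and 0 with the 2 libraries that stood apart left out together (1389 at an unadjusted p under 0.05). An alternative chosen after seeing the data counted members whose groups did not overlap: 4 in the main analysis, 1 of the 6 still tested with a minimum of 5 FPKM, 5 on leaving out WT replicate 2 or scaling to equal sums with or without mitochondrial genes, 8 without fat-1 replicate 1, and 7 without WT replicate 1 alone or with fat-1 replicate 3, where fewer libraries make separation easier. No paired analysis was possible because the fat-1 labels carry no replicate numbers shared with WT.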
